A study of Salix viminalis with 12 samples.

Results

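Translation factors are the proteins that help the ribosome to start and to extend a protein chain. In the root transcriptome of the basket willow *Salix viminalis*, 734 of 86843 contigs were described as initiation or elongation factors, and they carried the codes of 62 *Arabidopsis thaliana* genes. They were found by the text of their description, which had to name a translation or eukaryotic initiation factor, or an elongation factor. The rule left out descriptions with the word transcription, which removed 38 contigs of 8 genes. It also left out AT1G56070, an elongation factor gene with 113 contigs. The contigs were then grouped by their Arabidopsis code without the suffix that names the gene model. A contig is here a predicted coding sequence that remained in the assembly after similar sequences had been collapsed.

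The assembly was built from 12 root libraries, 3 each of the groups MC, MT, CC and CT. All plants were cuttings of the same individual, rooted for 3 weeks and then kept for 40 days on their soil before the temperature treatment of 4 weeks. MC and MT plants grew on soil spiked with Zn (500 ppm), Cu (175 ppm), Ni (30 ppm) and Cd (1.5 ppm), and CC and CT plants on control soil. MC and CC plants were held at 7/5 °C (day/night) and MT and CT plants at 23/20 °C, for which the sample labels give 4 °C and 22 °C. Since a single genotype was used, differences between willow genotypes were outside the design.

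The table analysed here has 5 columns of names and text, and 0 columns with a value per library. The effects of cold, of metals and of their combination on these genes could therefore not be computed, and the depth of a library cannot be read from the table. What could be described is how the genes were represented in the joint assembly. A number of contigs is not an expression level, and the numbers have neither replicates nor an error. All comparisons below are descriptions of a complete list, without a test. The tissue could not be checked by levels, but 6 of 9 root marker symbols had contigs, among them SHR (6 contigs) and SCR (3 contigs), regulators of root patterning, and PHO1 (11 contigs), a phosphate exporter. The other 3 symbols had 0 contigs, namely RHD6 and COBL9, which mark root hairs, and CASP1, which marks the endodermis.

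In eukaryotes, initiation factors bring the initiator tRNA and the capped mRNA to the small ribosomal subunit, and the start codon is found by scanning. Elongation factors then deliver each aminoacyl-tRNA and move the ribosome along the mRNA. Plastids and mitochondria translate their own mRNAs with factors of bacterial type, most of which are encoded in the nucleus. Elongation factors of the cytosol are among the most abundant proteins of growing plant cells, and initiation is the step on which stress signals commonly act.

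Elongation factors made up most of the contigs and initiation factors most of the genes. There were 14 elongation factor genes with 441 contigs (60.1% of the members), and 38 initiation factor genes with 252 contigs (34.3%). The remaining 10 genes had 41 contigs (5.59%) and carried a factor name that is shared with proteins of another task. The medians per gene were 5.5 contigs for elongation factors, 5 for initiation factors and 2.5 for the shared names. The elongation factors were more uneven, since their upper quartile was 29.25 contigs, compared with 9 for initiation factors.

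A translation factor gene had a median of 4.5 contigs (quartiles 3 and 9), compared with 3 (quartiles 2 and 5) over all 13764 genes with a code. Of the 62 genes, 5 (8.07%) had a single contig and 15 (24.2%) had 10 or more. Over all genes these shares were 22.3% and 8.74%. Translation factors were 0.45% of the genes but 1.144% of the 64173 contigs with a code. The 10 genes with the most contigs held 485 of the 734 contigs (66.1%). Most genes were therefore represented by a handful of contigs, and a few by very many.

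**Figure D1:**
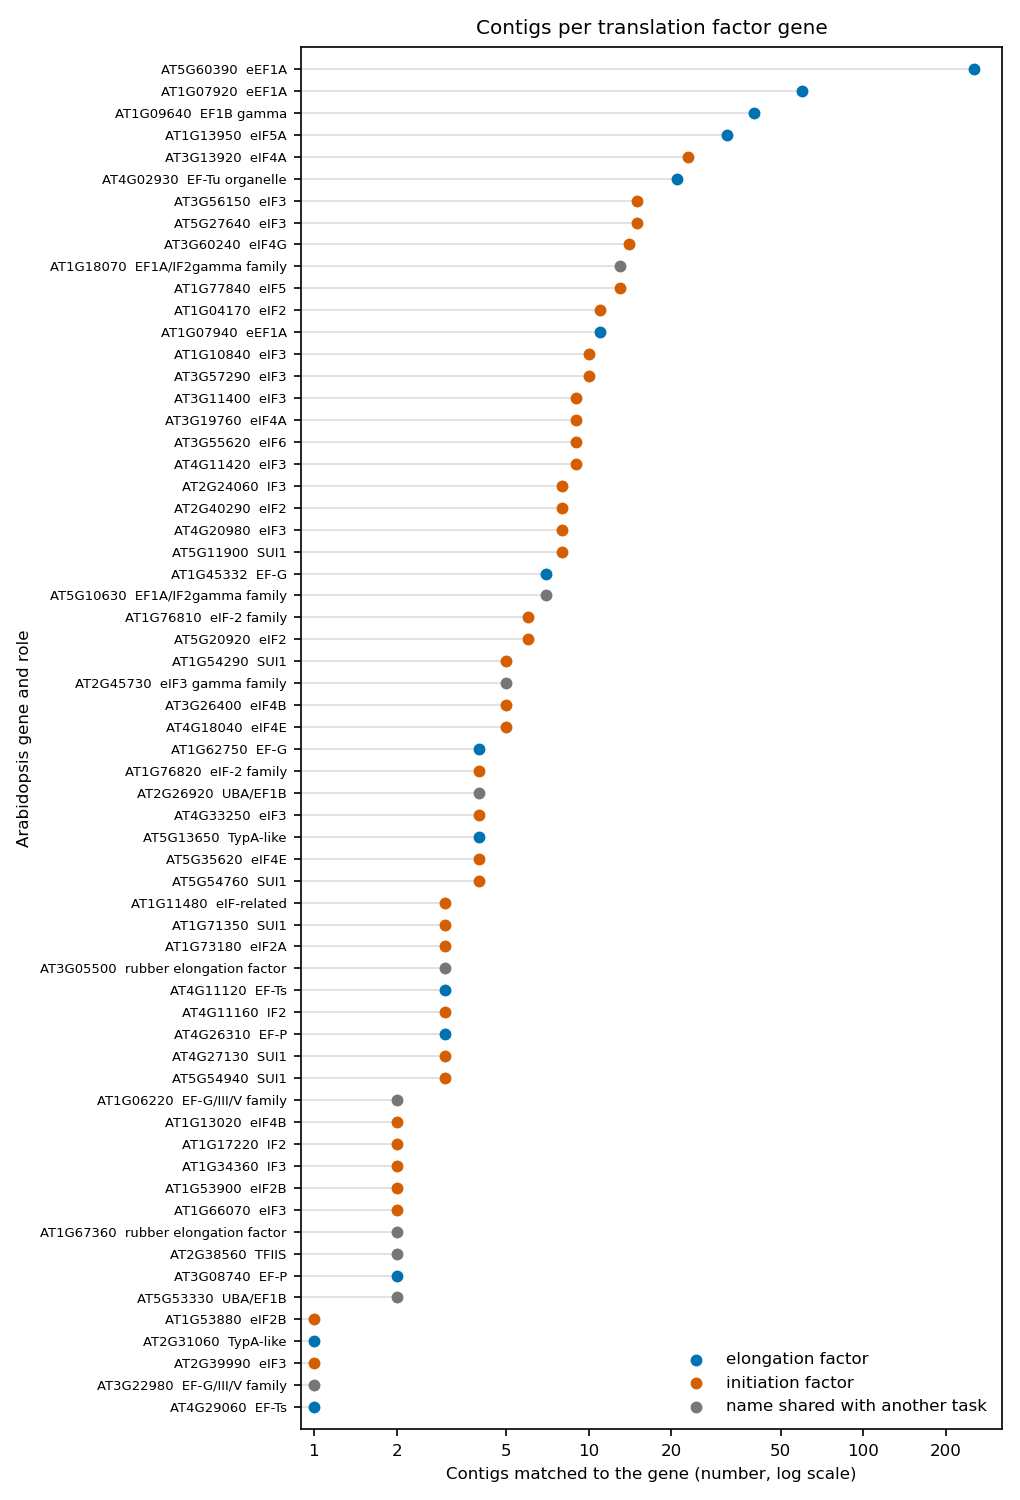
Contigs matched to each of the 62 translation factor genes, on a log axis; each row is an Arabidopsis gene with its role, and colours separate elongation factors, initiation factors and names shared with another task. AT5G60390 stands apart with 252 contigs, and 15 of the genes have 10 or more.

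**Figure D2:**
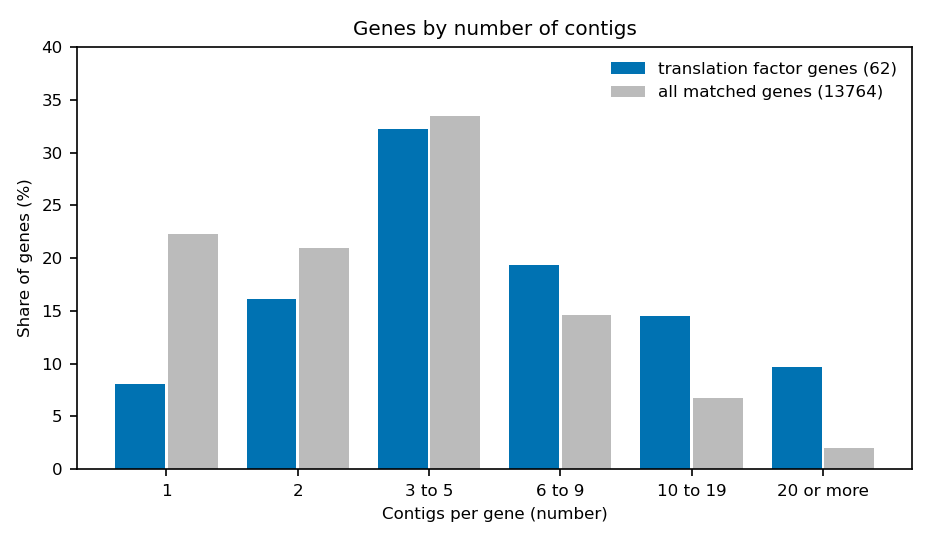
Share of genes (%) by the number of contigs per gene, for the 62 translation factor genes and for all 13764 matched genes. Genes with 20 or more contigs were 9.68% of the translation factors and 2.01% of all genes, and genes with a single contig 8.07% and 22.3%.

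The gene family with the most contigs was eEF1A, the GTPase that brings aminoacyl-tRNA to the ribosome. Its 3 genes had 323 contigs, 44.0% of all members. AT5G60390 had 252 contigs and ranked 5 among all genes, AT1G07920 had 60 and ranked 34, and AT1G07940 had 11. All were described as GTP-binding proteins of the elongation factor Tu family, and a further gene of the same description is treated with the organelle factors. Without the 3 eEF1A genes, the other 59 genes had 411 contigs and a median of 4.

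The contigs with the code AT5G60390 were spread over many units at each level of the assembly. Several willow genes can share an Arabidopsis code, and how many lie behind this code cannot be read from the table. The names of Trinity contigs give the component and within it the Trinity gene. A component is here the number after DN in the name, and can hold several clusters of overlapping reads. The 187 Trinity contigs of AT5G60390 came from 139 Trinity genes in 65 components. Of these components, 24 (36.9%) held a single contig of the gene, the median was 2, and the most was 9. AT1G07920 had 41 Trinity contigs from 35 Trinity genes in 30 components, and AT1G07940 had 8 from 7 in 7. The many contigs of eEF1A were thus mostly not isoforms of the same Trinity gene.

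**Figure D3:**
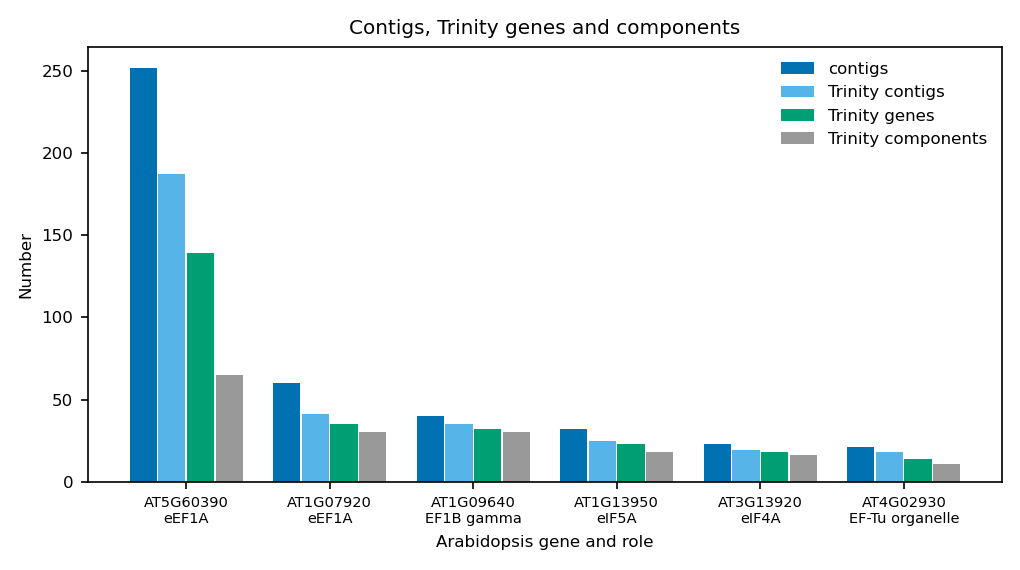
Number of contigs, of contigs with a Trinity name, of Trinity genes and of Trinity components for the 6 translation factor genes with the most contigs. For AT5G60390 the bars stand at 252, 187, 139 and 65, and for EF1B gamma (AT1G09640) at 40, 35, 32 and 30.

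The eEF1A codes were mixed within components. Contigs of any eEF1A gene lay in 75 components, of which 26 held more than 1 eEF1A code. AT5G60390 and AT1G07920 met in 21 components, AT5G60390 and AT1G07940 in 4, and AT1G07920 and AT1G07940 in 3, with 1 component holding all 3 codes. Within Trinity genes the mixing was less frequent, with 10 of 171 Trinity genes holding both AT5G60390 and AT1G07920. Many of the 171 held a single contig and could not be mixed. Of the 44 with several contigs, these 10 were 22.7%. AT1G07940 met neither of the other codes within a Trinity gene. The division between AT5G60390 and AT1G07920 was thus not sharp, and their contigs are better read as a family than gene by gene. For AT1G07940 the mixing rests on components alone. In Arabidopsis the eEF1A proteins are nearly identical.

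Mixed codes were counted in the same way for all translation factors, and eEF1A made up a large part of them. Among Trinity genes with several contigs, 18 of 90 (20.0%) with a translation factor held more than 1 code, compared with 1082 of 9116 (11.9%) of the others. A Trinity gene or component was counted with the translation factors if any of its contigs was a member. Those with several codes therefore had more ways to be counted there. The higher shares here and below thus cannot be read as an excess of mixing in translation factors. Of these 18, 10 held both AT5G60390 and AT1G07920. When every Trinity gene with an eEF1A code was set aside, 8 of 46 (17.4%) remained, from a small number of Trinity genes. Among components the shares were 56 of 120 (46.7%) for translation factors and 3208 of 10355 (31.0%) for the others. Of these 56 components, 26 held several eEF1A codes, and without any component with an eEF1A code the share was 28 of 72 (38.9%). Beyond eEF1A, the RNA helicases eIF4A1 (AT3G13920) and eIF4A-III (AT3G19760) met in 2 components. The partners were not only relatives, as contigs of EF1B gamma met codes of unrelated genes in several components, among them the chaperone gene HSP90.1 (AT5G52640). Whether such contigs lay in the same read cluster within a component was not counted.

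Many eEF1A contigs were not the first coding sequence predicted on their transcript. The contig names number the predictions, and 97 of the 323 eEF1A contigs (30.0%) had a number above 1. For AT5G60390 it was 79 of 252 (31.3%), rank 2 of the 48 genes with at least 50 contigs, and for AT1G07920 it was 25.0%, rank 6. The other translation factors were near the background, with 48 of 411 (11.7%), compared with 7564 of all contigs with a code (11.8%). A high share was not particular to eEF1A, since AT2G40010, which is no member, followed at rank 3 with 30.4%. The ribosomal proteins as a set, described below, had 17.2%. For all 79 of these AT5G60390 contigs, the first prediction on the transcript was not in the table. Over all members it was listed for 1 of 145 such contigs, and over all genes for 766 of 7564. Contigs of AT5G60390 were matched to 2 gene models. The model with suffix 3 had 180 contigs, of which 35.6% were later predictions, and the model with suffix 1 had 72, of which 20.8% were.

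The other cytosolic elongation factors also had many contigs. EF1B gamma (AT1G09640), a subunit of the complex that exchanges GDP for GTP on eEF1A, had 40 contigs and ranked 73 among all genes. The first Trinity assembly gave 35 of them, the second 0 and CLC 5. eIF5A (AT1G13950), first named as an initiation factor and now known to help the ribosome form difficult peptide bonds, had 32 contigs, with 22, 3 and 7 from the same assemblies. Together with eEF1A, the 5 elongation factor genes of the cytosol had 395 contigs (53.8% of the members) and a median of 40. The 27 initiation factor genes of the cytosol had 208 contigs and a median of 8.

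eEF2, which moves the ribosome along the mRNA, is the gene that the rule left out, AT1G56070, listed with the symbol LOS1. Its 113 contigs placed it at rank 14, and its 100 Trinity contigs came from 86 Trinity genes in 63 components. The first Trinity assembly named 96 of them (85.0%), compared with 45.6% of the AT5G60390 contigs. Delivery of aminoacyl-tRNA, the complex for nucleotide exchange and translocation in the cytosol thus each had a gene with at least 40 contigs. For the exchange complex this gene is that of the gamma subunit, and no other subunit of it was among the members. AT1G56070 lacked the high share of later coding sequences seen in eEF1A, with 15.0%.

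Among initiation factors, the multisubunit scaffold eIF3 had the most contigs. It binds the small ribosomal subunit and links it to the mRNA, and its 10 member genes had 83 contigs, with a median of 9. The large subunits eIF3C (AT3G56150) and eIF3B (AT5G27640) had 15 contigs each, and the largest core subunit, eIF3A (AT4G11420), had 9. eIF3E (AT3G57290) and eIF3H (AT1G10840) had 10 each, eIF3G (AT3G11400) had 9, subunit 7 (AT4G20980) had 8, and eIF3K (AT4G33250) had 4. All 10 contigs of eIF3H came from the first Trinity assembly. AT1G66070, described only as an eIF3 subunit, had 2 contigs. eIF3F (AT2G39990) had a single contig, and its description calls it factor 2 whereas its symbols give both eIF3F and EIF2. The subunits of this complex thus differed by up to 15 times in contigs.

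The factors that prepare the mRNA formed the next group. eIF4A, a helicase that unwinds the mRNA leader, had 23 contigs under eIF4A1 (AT3G13920). eIF4A-III (AT3G19760), a related helicase of the exon junction complex, which marks spliced mRNAs, had 9. A further helicase gene, EIF4A-2 (AT1G54270), was described by its symbol alone, so that its 3 contigs fell outside the rule. eIF4G (AT3G60240), the scaffold that joins the cap-binding protein to the helicase, had 14 contigs. Its plant-specific form eIFiso4G1 (AT5G57870) also had 14, but is described by its domains and was not a member. The cap-binding proteins eIF4E (AT4G18040) and eIFiso4E (AT5G35620) had 5 and 4, and the eIF4B genes, which stimulate the helicase, had 5 (AT3G26400) and 2 (AT1G13020). Within both cap-binding complexes, the scaffold thus had more contigs than the cap-binding subunit.

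The member genes around the initiator tRNA had at most 13 contigs each. eIF2 carries this tRNA to the small subunit, and its gamma (AT1G04170), alpha-type (subunit 1, AT2G40290) and beta (AT5G20920) subunits had 11, 8 and 6 contigs. eIF5 (AT1G77840), which stimulates GTP hydrolysis by eIF2, had 13. eIF2B, which in animals and yeast recharges eIF2 with GTP, was listed under AT1G53900 with 2 contigs and AT1G53880 with 1. These 2 genes do not cover eIF2B, because its other subunits are usually described by their folds. The 6 genes described as NagB-type proteins had 24 contigs and the 2 described as LpxA-type proteins had 6, but the table does not say which of them belong to eIF2B. eIF2A (AT1G73180) had 3 contigs, and AT1G76810 and AT1G76820, described as eIF-2 family proteins, had 6 and 4.

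The remaining initiation factors not of bacterial type had 3 to 9 contigs each. eIF6 (AT3G55620), which keeps the large ribosomal subunit apart from the small one, had 9. SUI1 is the family of eIF1, which guards the choice of the start codon. The 6 genes described as of this family had 26 contigs, 8 of them under AT5G11900. The descriptions do not say which of these genes are eIF1. AT1G54290 had 5, AT5G54760 had 4, and AT4G27130, AT5G54940 and AT1G71350 had 3 each. AT1G11480, described as related to initiation factors, had 3. The SUI1 genes were thus evenly represented, unlike the eEF1A genes.

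Factors of bacterial type, which serve plastids and mitochondria, had fewer contigs per gene than those of the cytosol. The 11 genes had 56 contigs and a median of 3, which is also the median of all genes, compared with 9 for the 34 genes assigned to the cytosol. These 34 include AT1G18070 and AT5G10630, which have shared names, and leave out the 6 SUI1 genes, which had a median of 3.5. The exception was AT4G02930, an EF-Tu of organelle type with 21 contigs and rank 236. Its contigs came from 14 Trinity genes in 11 components, and none was a later coding sequence. EF-Tu is the bacterial counterpart of eEF1A. Among the members of each side, a gene for the delivery of aminoacyl-tRNA thus had the most contigs, but on the organelle side this rests on AT4G02930 alone. The plastid EF-Tu of Arabidopsis, AT4G20360, is listed as a RAB GTPase homologue (RABE1b) and therefore was no member. It had 5 contigs, fewer than the 8 of the initiation factor gene AT2G24060.

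The other bacterial-type elongation factors had at most 7 contigs. EF-G moves the bacterial ribosome along the mRNA, and was listed under AT1G45332 with 7 contigs and under AT1G62750 (SCO1, the plastid EF-G) with 4. EF-Ts exchanges the nucleotide on EF-Tu, and had 3 contigs under AT4G11120 and 1 under AT4G29060. EF-P, the bacterial relative of eIF5A, had 3 under AT4G26310 and 2 under AT3G08740. Thus eIF5A had 32 contigs, compared with 5 for both EF-P genes. AT5G13650 and AT2G31060, described only as elongation factor family proteins and grouped here as TypA-like, had 4 and 1.

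The bacterial-type initiation factors had 15 contigs over 4 genes. IF3, which holds the small subunit free for initiation, had 8 contigs under AT2G24060 and 2 under AT1G34360. IF2, which brings the initiator tRNA, had 3 under AT4G11160 and 2 under AT1G17220 (FUG1, the plastid form). A bacterial-type IF1 was not among the descriptions that the rule found.

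The 10 genes with shared names carry descriptions that do not by themselves place them in initiation or elongation. AT1G18070 and AT5G10630, described as EF1A/IF2gamma family proteins, had 13 and 7 contigs. In yeast this family also holds the release factor Sup35 and the ribosome rescue factor Hbs1. AT1G06220 (CLO) and AT3G22980, described together with EF-G, had 2 and 1 contigs, and CLO is related to Snu114, a GTPase of the yeast spliceosome. AT2G26920 and AT5G53330 had 4 and 2, and share with EF1B only the name of a domain that is also found in ubiquitin-binding proteins.

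The others of these genes were known for tasks far from the ribosome. TFIIS (AT2G38560) acts on RNA polymerase II and stayed in because its description says transcript and not transcription, with 2 contigs. AT3G05500 and AT1G67360, with 3 and 2 contigs, bear the name of the rubber elongation factor of the rubber tree, a protein of rubber particles. AT2G45730, with 5 contigs, is named after an eIF3 gamma family, whose yeast member Gcd10 is part of a tRNA methyltransferase. Without these genes, 52 genes with 693 contigs and a median of 5 remained.

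The assembly of origin, which the rule did not use, also differed between roles. Trinity contigs are named after a first or a second assembly, and the remaining names were assigned to CLC by elimination. Of the members, 58.3% came from the first Trinity assembly, 19.6% from the second and 22.1% from CLC, compared with 52.9%, 21.4% and 25.8% of all contigs with a code. The eEF1A contigs pulled this down, with 45.2%, 27.9% and 26.9%. Without them, 68.6% of the members came from the first Trinity assembly. The 177 first Trinity contigs of the initiation factors were 70.2% of their contigs. Ribosomal proteins and tRNA synthetases, which are described below, had shares of 73.0% and 67.4%. A high first Trinity share was thus not particular to translation factors.

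**Figure D4:**
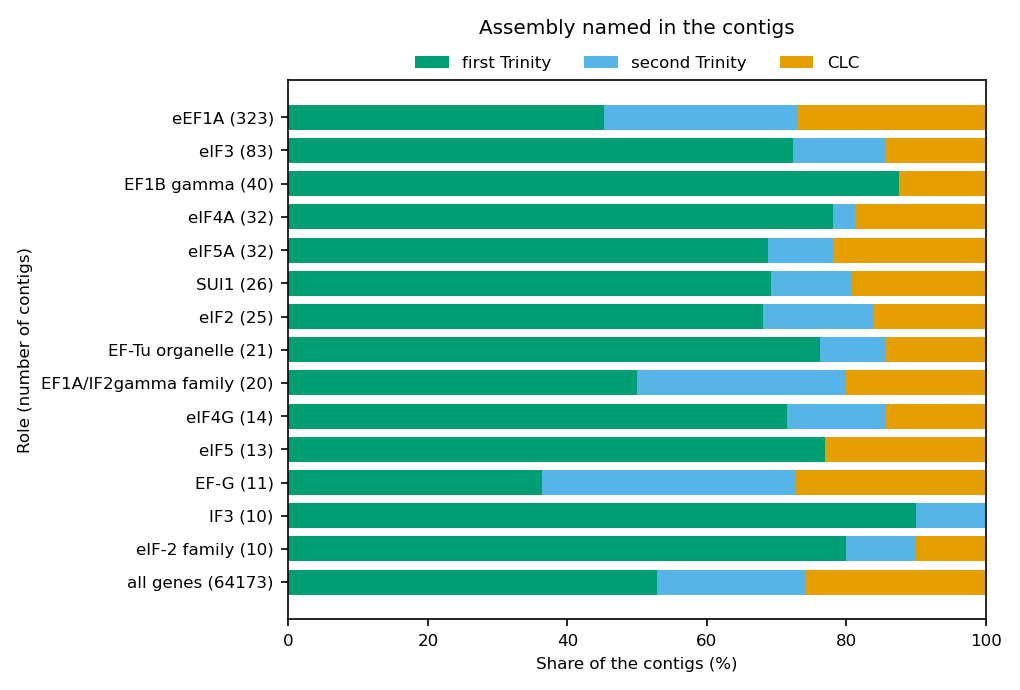
Share of contigs (%) from the first Trinity assembly, the second Trinity assembly and CLC, for the roles with at least 10 contigs and for all genes, with the number of contigs in brackets. The first Trinity share is 45.2% for eEF1A, 72.3% for eIF3 and 52.9% for all genes.

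Most translation factor genes kept contigs named after more than 1 assembly. Of the 62 genes, 25 (40.3%) had contigs from all 3 assemblies, 25 from 2, and 12 (19.4%) from 1. Over all genes these shares were 25.9%, 39.7% and 34.4%. Of the 12 genes, 9 had contigs of the first Trinity assembly alone and 3 of CLC alone. No contig of the second Trinity assembly was kept for 26 of the genes, of CLC for 19 and of the first Trinity assembly for 4. No member gene had contigs of the second Trinity assembly alone. These counts cover contigs that remained after similar sequences had been collapsed. An assembly without a contig here may therefore still have held the gene.

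The 734 contigs lay on 733 transcripts. On 1 transcript, 2 coding sequences both had the code of AT1G07920. On 4 more, a member lay beside a coding sequence without a code, and on another AT4G02930 lay beside AT4G02920, the code next to it in the Arabidopsis numbering. Symbols were given for 24 of the genes and for 27.8% of the member contigs, compared with 46.0% of all contigs with a code. None of the eEF1A contigs had a symbol, so that a search by symbol would miss the family with the most contigs. The symbol EIF2 was given to 3 genes, including eIF3F.

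Other genes of translation gave the surroundings. The 186 ribosomal protein genes, found by their description, had 2357 contigs and a median of 4, close to the median of the translation factors. Of these genes 37.6% had 10 or more contigs, compared with 24.2% of the translation factors, but the most for a gene was 76, compared with 252. The 38 tRNA synthetase genes, which charge tRNAs, had 172 contigs, a median of 4 and at most 16. Poly(A)-binding proteins, which join the mRNA tail to eIF4G, had 100 contigs over 5 genes, with 50 under PAB8 (AT1G49760), 25 under PAB3 (AT1G22760) and 18 under PAB2 (AT4G34110). At the end of the chain, 8 release factor genes had 29 contigs, of which ERF1-3 (AT3G26618) had 10, and 2 ribosome recycling factor genes had 3. Elongation thus had more contigs than initiation, tRNA charging or termination in this assembly, but 323 of its 441 contigs were those of eEF1A. Without eEF1A, elongation had fewer contigs than the 252 of initiation, and the medians per gene with eEF1A were close, 5.5 and 5.

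Some factors known from other plants are described by domain in this table and were not members. Proteins with a MIF4G domain had 20 contigs over 3 genes, those with a PCI domain 45 over 8, and a PAF67 protein (AT5G25757), an eIF3 subunit family, had 4. The cap-binding protein AT5G18110 had 2. The 15 genes described by an OB-fold had 40 contigs, of which AT2G04520 had 14. Which members of these domain families act in initiation was not given for most, so that the counts of eIF3, eIF4G and eIF2B above are lower limits for this assembly.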

How the data were processed

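RNA of *S. viminalis* roots was sequenced in 12 libraries. The authors trimmed the reads and joined CLC and Trinity assemblies. TransDecoder then gave coding sequences, which were collapsed by similarity (cd-hit-est) and matched to *Salix purpurea*. The table deposited by the authors holds names and text for each contig of the joint assembly, and no counts or expression values, so that depth and precision per library cannot be read from it and no group was compared. The number of contigs per gene can depend on how far sequences were collapsed, which was not varied here. Contigs, transcripts and codes were counted with pandas (v. 2.3.3) in Python (v. 3.11.15), and plotted with matplotlib (v. 3.10.9). The counting was tested on simulated data. Members and lists were chosen with earlier results of these data known. The genes to name were the 10 with the most contigs, the first of each role, AT1G07920, and every member with a name of another task, and all other genes were named after their values were seen. Roles were assigned by hand from symbols and descriptions. The alternatives were other wordings of the rule, units of counting, and the kept contigs of each assembly alone. Sequences of the contigs were not used here.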

Additional observations from a re-analysis of the deposited data

How the results depend on the processing

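No paired analysis was possible because no library has values of its own here. The number of genes, 62, stayed between 48 and 67 under the other wordings and units that were tried. The number of contigs was 733 as transcripts and 610 as Trinity genes, but it was 369 when only descriptions that name translation or eukaryotic factors were kept, which takes out the eEF1A genes by wording. The median of 4.5 contigs per gene was 1.5 for kept contigs of the second Trinity assembly alone and 1 for those of CLC alone. These sets hold fewer contigs, and under the other alternatives the median lay between 3 and 5. The share of the 10 genes with the most contigs, 66.1%, was 76.4% for kept contigs of the second Trinity assembly alone. It was 71.6% for those of CLC alone, and the cause was not tested. The share of the first Trinity assembly, 58.3%, was 64.9% without AT5G60390. It was 68.6% without the 3 eEF1A genes, an alternative that was added after seeing the data, as were the counts without shared names. AT5G60390 alone held 34.3% of all member contigs. The table gives no reads per gene, so that the coverage behind a gene with few contigs was not compared.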
